A study of Mus musculus with 12 samples.

Results

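Hox genes were followed through the first days of mouse embryonic stem (ES) cell differentiation. They were taken as every gene of the whole-genome count matrix whose symbol is Hoxa, Hoxb, Hoxc or Hoxd followed by a number alone, which gave 39 of 55487 genes. The Hoxa cluster holds 11 of them on chromosome 6 and the Hoxb cluster 10 on chromosome 11 (96194316 to 96368256). The Hoxc cluster holds 9 on chromosome 15 (102921103 to 103036852) and the Hoxd cluster 9 on chromosome 2 (74668310 to 74765142). Positions are from GENCODE on GRCm38, in which all 39 symbols were found.

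Poly(A) RNA was sequenced from female C57BL6/CAST ES cells, labelled as a hybrid of these mouse strains. Reads over strain differences can be assigned to a parental genome. The 4 groups of 3 libraries were wild type cells at day 0, SIRT7-KO cells at day 0, wild type cells 7 days after withdrawal of LIF and SIRT7-KO cells 7 days after withdrawal of LIF. LIF is the cytokine that holds mouse ES cells undifferentiated, and SIRT7 is a nuclear NAD-dependent deacylase. All 12 libraries share the strain background and sex. Per the treatment protocol and the design text, cells were in LIF up to day 0 and without it afterwards, and no group is described as kept in LIF until day 7. The labels do not say whether replicates were separate cultures or clones, so p-values measure the spread between these libraries, which may be technical. A further treatment label goes against this description. It reads LIF for replicates 1 and 3 labelled knockout and for wild type replicate 2, on both days, and None for the others. Groups were therefore not formed from it, and a fit with it as a covariate gave 28 calls over 7 days in wild type, 31 in the cells labelled knockout and 0 between genotypes.

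The libraries held 25190483 to 69079368 estimated reads each. As a check of the genotype labels, Sirt7 stood at 12.7, 8.03 and 10.3 CPM (counts scaled to library size) in wild type day 0 libraries and at 19.2, 23.8 and 16.9 CPM in the day 0 libraries labelled knockout. At day 7 it stood at 10.2, 10.6 and 15.3 CPM in wild type and at 25.1, 20.1 and 23.8 CPM in the libraries labelled knockout. Sirt7 was thus higher in every library labelled knockout, on both days and with no overlap, and which exons were removed is not in the labels. Each genotype direction below belongs to the label, and would turn if the labels were exchanged. Of 8 ES cell markers all 8 fell in both genotypes, from a summed 5088 to 5410 CPM at day 0 to 254 to 292 CPM at day 7. Among them Esrrb was higher by 2.40 on the log2 scale (edgeR adjusted p = 0.00147) at day 0 in the libraries labelled knockout. Wild type day 0 replicate 3 had reads of 31 Hox genes, against 25 in the other wild type day 0 libraries. In that group it alone held the reads of Hoxa5, Hoxb3, Hoxc5, Hoxc6, Hoxc8, Hoxc11 and Hoxd4, 2 to 13 reads each.

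Hox genes encode homeodomain transcription factors that tell cells where they lie along the head-to-tail axis of the embryo. Within a cluster, low-numbered genes are switched on earlier and further toward the head than high-numbered genes, and genes with the same number in different clusters are paralogues. In ES cells the clusters carry Polycomb and trithorax marks together and are mostly silent. Retinoic acid, Wnt and FGF signals and the CDX factors open them during differentiation, and HOX proteins bind DNA with PBX and MEIS partners.

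At day 0 the Hox genes were near the lower limit of detection. Levels are compared between genes in RPKM (CPM per kilobase of exon), and 2 to 3 of the 39 genes reached 1 RPKM in a wild type day 0 library and 1 to 2 in one labelled knockout. At day 7 the number was 20 in each of the 3 wild type libraries and 15 to 18 in the libraries labelled knockout. Hoxa6 had no read in any library. Hoxa2, Hoxa4 and Hoxd12 had too few reads for the test, which 35 of the 39 members entered.

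**Figure D1:**
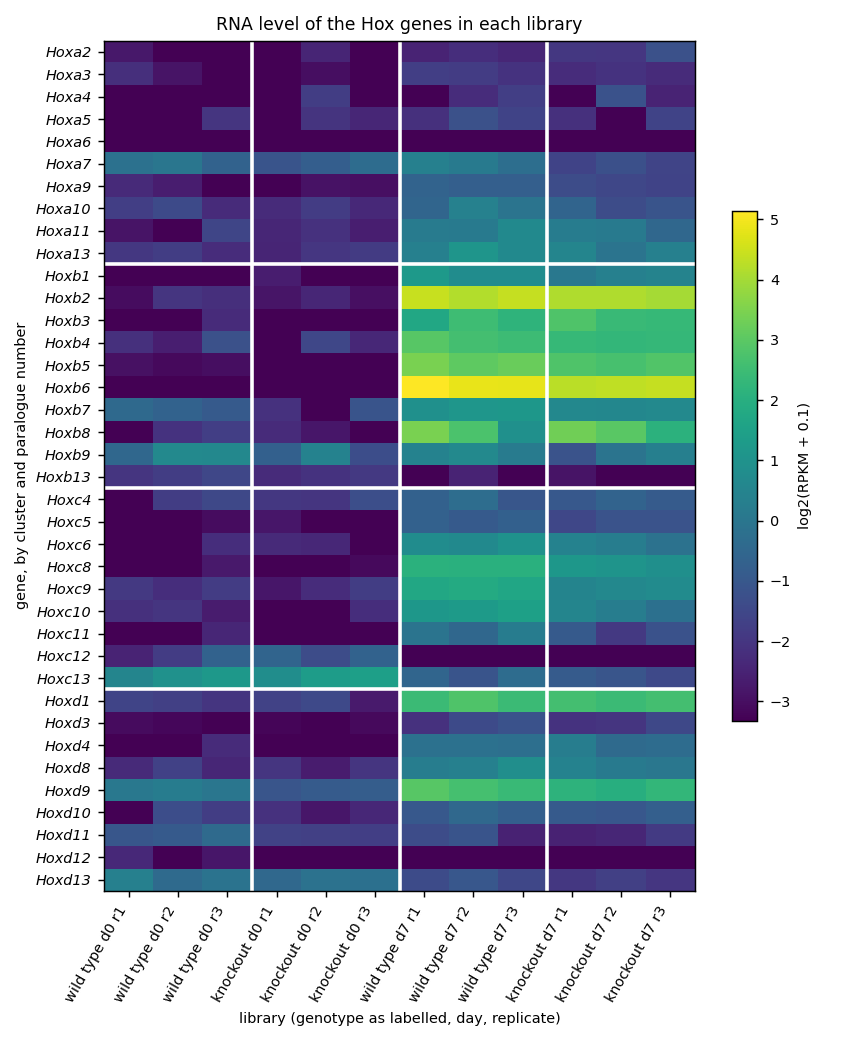
Levels of the Hox genes in the 12 libraries, coloured by log2(RPKM + 0.1), with genes in rows by cluster and paralogue number and libraries in columns by group. At day 7 the Hoxb block is the brightest, with Hoxb6 at 28.2 to 35.2 RPKM in wild type, while Hoxc12, Hoxc13 and Hoxd13 are brighter at day 0 than at day 7.

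In wild type at day 0 the most abundant members by RPKM were Hoxc13, Hoxb9 and Hoxd9, all of the posterior paralogues numbered 9 to 13. Hoxc13, known for its role in hair follicles and nails, stood at 1.35, 1.83 and 2.20 RPKM in wild type and at 1.69, 2.48 and 2.67 RPKM in the libraries labelled knockout. Hoxb9, a regulator of rib patterning, stood at 0.605, 1.5 and 1.46 RPKM in wild type and at 0.503, 1.24 and 0.300 RPKM in the libraries labelled knockout. For both genes the ranges of the 2 genotypes overlapped.

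In the Hoxd cluster, Hoxd9, which acts in limb and lumbar patterning, led in wild type with 0.954, 1.07 and 0.895 RPKM. In the libraries labelled knockout it stood at 0.367, 0.443 and 0.463 RPKM, below every wild type library. There Hoxd13, a digit and genital patterning gene, was the highest of its cluster, at 0.618, 0.808 and 0.776 RPKM against 1.17, 0.654 and 0.840 RPKM in wild type. The Hoxd13 ranges overlapped between genotypes.

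In the Hoxa cluster, Hoxa7, a thoracic patterning gene, led in wild type with 0.792, 0.909 and 0.532 RPKM, and stood at 0.356, 0.474 and 0.687 RPKM in the libraries labelled knockout. Its ranges overlapped between genotypes. Summed over the 39 members, day 0 expression was 24.7 ± 2.35 CPM (SD, n = 3) in wild type and 18.9 ± 2.87 CPM (SD, n = 3) in the libraries labelled knockout. The highest library labelled knockout, at 21.7 CPM, was below the lowest wild type library, at 22.3 CPM. These sums rest on 572 and 558 reads of the whole-genome counts, and so narrow a separation depends on the count table used.

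Over 7 days without LIF the Hox genes rose in every cluster. By edgeR's quasi-likelihood test, with Benjamini-Hochberg adjustment over 19235 genes and a threshold of 0.05, 24 of the 39 members rose in wild type cells, where 32.9% of all tested genes rose. There 3 of the 39 fell, beside 32.1% of all tested genes, while 8 passed neither way and 4 were not tested. In the cells labelled knockout 26 of 39 rose (31.1% of all tested genes) and 5 fell (32.3%), while 4 passed neither way. The median log2 change over tested members was 3.73 in wild type and 3.62 in the cells labelled knockout, beside 0.01 and -0.02 over all tested genes. With genes that had no read in 1 group set at their lower bound, both medians stayed at 3.73 and 3.62. Some members with few day 0 reads passed the filter only through their day 7 reads, and Hoxc12, with no read at day 7, only through day 0. With the compared groups fitted alone, 24 rose and 2 fell of 33 tested in wild type. In the cells labelled knockout 27 rose and 2 fell of 32 tested. Without the filter 38 members were tested, with medians of 3.57 and 3.48. The summed Hox level reached 326 ± 23.4 CPM (SD, n = 3) in wild type at day 7 and 255 ± 12.6 CPM (SD, n = 3) in the libraries labelled knockout, 13.2 and 13.5 times the day 0 sums. In bulk RNA, more cells that express a gene and more RNA per cell cannot be told apart.

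**Figure D2:**
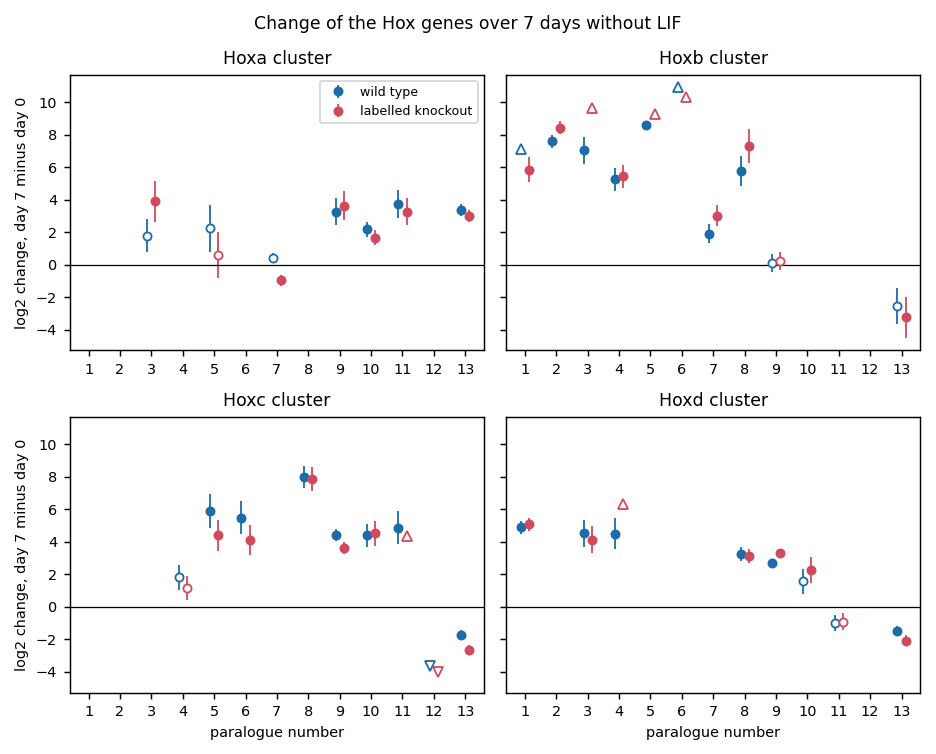
Change of the Hox genes from day 0 to day 7 on the log2 scale, by paralogue number in 1 panel per cluster, for wild type (blue) and cells labelled knockout (red). Filled points passed the edgeR test, open points did not, bars are standard errors and open triangles are lower bounds for genes with no read in 1 group. Points lie above 0 for all members shown that are numbered 1 to 6, and those below 0 are Hoxa7 in the cells labelled knockout, Hoxb13, Hoxc12, Hoxc13, Hoxd11 and Hoxd13.

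The anterior paralogues, numbered 1 to 3, have 8 members, of which 6 rose in wild type and 7 in the cells labelled knockout. Of all tested genes, 32.9% and 31.1% rose. Hoxd1, which in mouse shapes sensory neurons, stood at 0.236, 0.202 and 0.149 RPKM in wild type at day 0 and at 5.35, 6.90 and 5.32 RPKM at day 7. In the libraries labelled knockout it went from 0.220, 0.264 and 0.0518 RPKM to 6.06, 5.31 and 5.96 RPKM. The day 7 values of the 2 genotypes overlapped, and the log2 changes were 4.89 (SE 0.41, edgeR adjusted p = 1.13e-06) and 5.08 (SE 0.41, edgeR adjusted p = 9.95e-07).

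Hoxb1, a hindbrain patterning gene, was without reads in the wild type day 0 libraries and had 4 reads in 1 library labelled knockout. At day 7 it stood at 2.28, 1.64 and 1.62 RPKM in wild type, at least 137-fold above a floor of 3 reads over the day 0 group, and at 0.938, 1.19 and 1.26 RPKM in the libraries labelled knockout. Hoxb2, another hindbrain gene, reached 21.7, 17.8 and 20.9 RPKM in wild type and 17.4, 17.6 and 16.1 RPKM in the libraries labelled knockout, from day 0 means of 0.0970 and 0.0512 RPKM. In wild type day 7 replicate 2 the whole-genome table gave Hoxb2 4176 reads and the table divided by parental genome 1405. Its log2 changes were 7.59 (SE 0.40, edgeR adjusted p = 2.51e-08) and 8.44 (SE 0.43, edgeR adjusted p = 2.12e-08). Hoxb3 rose in both genotypes, to a mean of 4.43 ± 1.19 RPKM (SD, n = 3) in wild type and 5.73 ± 1.08 RPKM (SD, n = 3) in the cells labelled knockout. Hoxd3 rose in both to lower levels, 0.249 and 0.178 RPKM. Hoxa3 passed the test in the cells labelled knockout, from 4 reads in 1 day 0 library, and was at 0.173 and 0.118 RPKM at day 7. That call was lost without knockout day 0 replicate 1 (edgeR adjusted p = 0.0535) or 3 (0.0615). Hoxa2, which patterns the branchial arches, was not tested, and had 24 reads in wild type and 37 in the libraries labelled knockout at day 7.

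The central paralogues, numbered 4 to 8, have 15 members, of which 10 rose in each genotype, beside 32.9% and 31.1% of all tested genes. By CPM, Hoxb2 was above Hoxb6 at day 7, at 70.1 and 60.7 in wild type and 59.4 and 39.5 in the libraries labelled knockout. By RPKM, Hoxb6, known in mouse for its expression in lateral plate mesoderm, was the most abundant Hox gene of both genotypes at day 7. It had no read in any day 0 library, and at day 7 it stood at 35.2, 29.3 and 28.2 RPKM in wild type and at 19.1, 20.2 and 21.1 RPKM in the libraries labelled knockout. Every wild type day 7 library was above every library labelled knockout. Against a floor of 3 reads over the day 0 group, it was at least 1953-fold higher at day 7 in wild type and at least 1276-fold higher in the cells labelled knockout.

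Hoxb5, which acts in neural crest and lung, reached 10.6, 8.19 and 9.16 RPKM in wild type and 6.91, 6.34 and 7.08 RPKM in the libraries labelled knockout, again with no overlap. Its log2 change in wild type was 8.62 (SE 0.24, edgeR adjusted p = 3.13e-09), and in the cells labelled knockout it was at least 614-fold higher. Hoxb4, known for expanding blood stem cells, reached 6.31 ± 1.08 RPKM (SD, n = 3) in wild type and 4.84 ± 0.136 RPKM (SD, n = 3) in the libraries labelled knockout. Hoxb7 rose as well, from 0.536 ± 0.11 to 2.01 ± 0.190 RPKM (SD, n = 3) in wild type, by 1.91 (SE 0.60, edgeR adjusted p = 0.0151) on the log2 scale. Without wild type day 0 replicate 3 the adjusted p was 0.0511. In the cells labelled knockout Hoxb7 rose from 0.164 ± 0.182 to 1.44 ± 0.0416 RPKM (SD, n = 3).

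Hoxb8, a posterior axis gene that also acts in myeloid progenitors, varied most between replicates among the abundant members. It stood at 10.7, 6.58 and 1.82 RPKM in wild type at day 7 and at 9.86, 7.84 and 4.20 RPKM in the libraries labelled knockout. The lowest of these was above the highest day 0 library, at 0.198 RPKM. Its rise in wild type was 5.77 (SE 0.92, edgeR adjusted p = 2.06e-04) on the log2 scale, and 5.19 without wild type day 7 replicate 1. In that group's replicate 3, the table divided by parental genome gave Hoxb8 767 reads where the whole-genome table gave 124.

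Hoxc8, which patterns thoracic vertebrae, was the highest Hoxc member at day 7. It stood at 4.11, 4.03 and 4.05 RPKM in wild type and at 2.12, 2.0 and 1.77 RPKM in the libraries labelled knockout, so that every library labelled knockout was below every wild type one. At day 0 it had 4 reads in wild type and 2 in the libraries labelled knockout, each in 1 library. Its log2 change in wild type was 7.97 (SE 0.68, edgeR adjusted p = 1.43e-06), which became 11.71 without wild type day 0 replicate 3, the library with those reads, and 7.22 without replicate 2. Hoxc5 and Hoxc6 rose in both genotypes, to 0.480 and 1.68 RPKM in wild type and to 0.315 and 1.06 RPKM in the cells labelled knockout. Hoxd4 and Hoxd8 rose in both as well, to 0.775 and 1.34 RPKM in wild type and 0.821 and 1.06 RPKM in the cells labelled knockout. Hoxc4 did not pass in either (edgeR adjusted p = 0.0510 and 0.188), and neither did Hoxa5, a respiratory tract gene (0.193 and 0.731). Hoxa4 had 20 reads at day 7 in each genotype.

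Hoxa7 was the 1 central member that fell, and it did so in the cells labelled knockout. In wild type it stood at 1.20, 0.996 and 0.740 RPKM at day 7, overlapping its day 0 values, with a log2 difference of 0.40 (SE 0.32, edgeR adjusted p = 0.295). In the libraries labelled knockout it stood at 0.225, 0.317 and 0.235 RPKM, below all 3 day 0 libraries, a log2 change of -0.97 (SE 0.34, edgeR adjusted p = 0.0260). Leaving out knockout day 0 replicate 3 or day 7 replicate 1 or 3 ended that call (adjusted p = 0.123, 0.0816 and 0.0744).

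The posterior paralogues, numbered 9 to 13, have 16 members and moved in both directions. In wild type 8 rose and 3 fell, and in the cells labelled knockout 9 rose and 4 fell. Of all tested genes, 32.9% rose and 32.1% fell in wild type, and 31.1% rose and 32.3% fell in the cells labelled knockout. Hoxd9, the highest Hoxd member at day 7, rose to 7.64, 6.23 and 5.29 RPKM in wild type and 4.37, 3.83 and 4.76 RPKM in the libraries labelled knockout. Its log2 change was 2.71 (SE 0.19, edgeR adjusted p = 2.57e-07) in wild type and 3.34 (SE 0.20, edgeR adjusted p = 7.77e-08) in the cells labelled knockout. Hoxc9, which marks thoracic motor columns in the spinal cord and was singled out here after its values were seen, stood at 0.164, 0.116 and 0.186 RPKM in wild type at day 0 and at 3.24, 3.52 and 3.11 RPKM at day 7. In the libraries labelled knockout it went from 0.0421, 0.109 and 0.188 RPKM to 1.31, 1.45 and 1.58 RPKM, below every wild type day 7 library. Its log2 changes were 4.41 (SE 0.38, edgeR adjusted p = 1.56e-06) in wild type and 3.61 (SE 0.38, edgeR adjusted p = 8.20e-06) in the cells labelled knockout, the latter 4.25 without knockout day 0 replicate 3.

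Hoxa13, which acts in digits and in the allantois and umbilical vessels of the mouse, rose from 0.155 ± 0.0395 to 1.60 ± 0.431 RPKM (SD, n = 3) in wild type and from 0.137 ± 0.0484 to 1.13 ± 0.245 RPKM (SD, n = 3) in the cells labelled knockout. Its log2 changes were 3.34 (SE 0.36, edgeR adjusted p = 9.86e-06) and 3.01 (SE 0.36, edgeR adjusted p = 2.40e-05). Hoxa9, Hoxa10 and Hoxa11, of which Hoxa10 and Hoxa11 act in the uterus, rose in both genotypes to between 0.254 and 1.19 RPKM. Hoxc10 and Hoxc11 rose in both, to 2.40 and 0.847 RPKM in wild type and 1.07 and 0.309 RPKM in the cells labelled knockout. Hoxd10 passed in the cells labelled knockout (edgeR adjusted p = 0.0302) and not in wild type (0.0919), and leaving out knockout day 7 replicate 1, 2 or 3 or day 0 replicate 2 or 3 ended that call, with an adjusted p from 0.0507 to 0.0923.

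The members that fell were all posterior apart from Hoxa7. Hoxc13 stood at 0.583, 0.356 and 0.692 RPKM in wild type at day 7 and at 0.443, 0.371 and 0.262 RPKM in the libraries labelled knockout, below every day 0 library. Its log2 changes were -1.74 (SE 0.32, edgeR adjusted p = 5.91e-04) and -2.66 (SE 0.33, edgeR adjusted p = 3.29e-05). Hoxd13 stood at 0.279, 0.389 and 0.249 RPKM in wild type at day 7 and at 0.157, 0.204 and 0.156 RPKM in the libraries labelled knockout. These values were also below every day 0 library, and the log2 changes were -1.52 (SE 0.31, edgeR adjusted p = 0.00122) and -2.09 (SE 0.33, edgeR adjusted p = 1.82e-04). The paralogues numbered 13 thus went both ways, with Hoxa13 up and Hoxc13 and Hoxd13 down in both genotypes.

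Hoxc12 stood at 0.0775, 0.183 and 0.539 RPKM in wild type at day 0 and at 0.562, 0.294 and 0.538 RPKM in the libraries labelled knockout, and had no read at day 7. It was at least 12.3-fold lower at day 7 in wild type and at least 16.3-fold lower in the cells labelled knockout. Hoxb13, a prostate and tail-tip gene, had 42 and 30 reads at day 0 and 12 and 3 reads at day 7, those of day 7 in 1 library of each group. It passed the test in the cells labelled knockout (edgeR adjusted p = 0.0432) and not in wild type (0.0591), and 5 of the 6 fits that left out a knockout library ended the call, with an adjusted p from 0.0650 to 0.129. Hoxb9 did not pass in either genotype (edgeR adjusted p = 0.902 and 0.742), with 1.25, 1.49 and 1.04 RPKM in wild type at day 7 and 0.353, 0.866 and 1.15 RPKM in the libraries labelled knockout. Hoxd11 did not pass either, at 0.240 and 0.11 RPKM at day 7 (edgeR adjusted p = 0.101 and 0.159), and Hoxd12 had 9 reads in wild type at day 0 and none in the other groups.

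**Figure D3:**
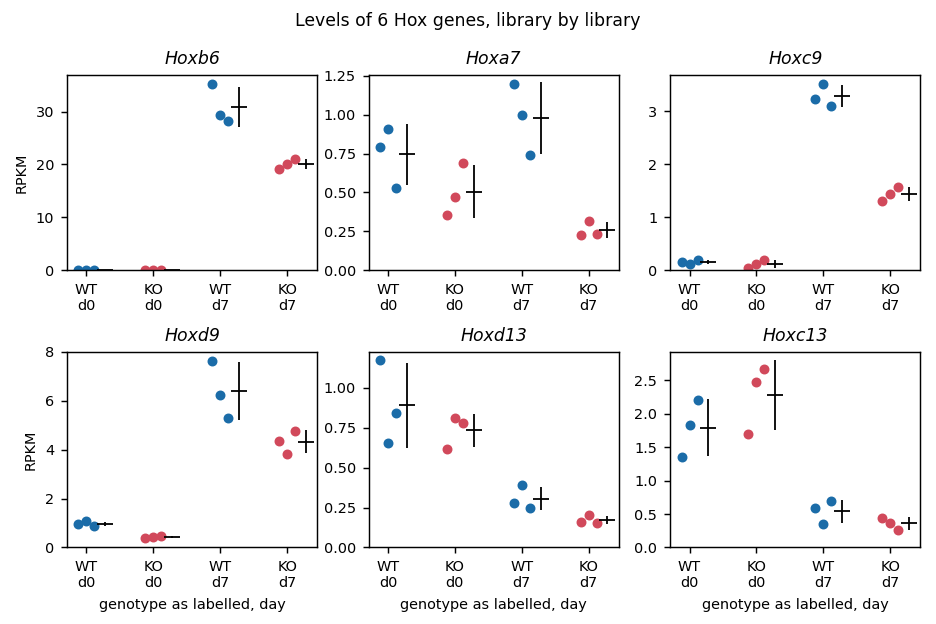
RPKM of Hoxb6, Hoxa7, Hoxc9, Hoxd9, Hoxd13 and Hoxc13 in each library (points), with the group mean and SD (bars), on an axis per gene. Hoxb6, Hoxc9 and Hoxd9 are higher at day 7 in both genotypes, Hoxd13 and Hoxc13 are lower, and Hoxa7 at day 7 lies at 0.225 to 0.317 RPKM in the libraries labelled knockout against 0.740 to 1.20 in wild type.

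By cluster, Hoxb carried most of the Hox reads at day 7, 219 ± 24.4 CPM (SD, n = 3) in wild type and 181 ± 10.7 CPM (SD, n = 3) in the libraries labelled knockout. That was 39.1 and 61.3 times its day 0 sum. Hoxa reached 38.0 ± 3.96 and 29.6 ± 0.735 CPM, Hoxc 34.0 ± 0.977 and 17.3 ± 1.41 CPM, and Hoxd 34.2 ± 2.59 and 27.7 ± 2.40 CPM (SD, n = 3 each). Median log2 changes over tested members were 2.75, 6.41, 4.41 and 2.98 for Hoxa, Hoxb, Hoxc and Hoxd in wild type, and 3.13, 6.58, 4.12 and 3.23 in the cells labelled knockout.

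Promoter sequences are shown for 4 members that moved differently, Hoxb1 and Hoxb8 from the cluster with the highest levels, Hoxd1 as the largest wild type riser of its cluster, and Hoxd13 as a gene that fell at the other end of that cluster. They come from RefSeq on GRCm38.p6, plus strand, and end before the RefSeq start of the gene. That of Hoxb1 was shortened to end before the GENCODE start as well. Capitals mark matches to a CDX motif (TTTATNG), a HOX-PBX motif (TGATNNAT) or a TATA box (TATAAA), searched on both strands.
Hoxb1, chr11:96365508-96365751: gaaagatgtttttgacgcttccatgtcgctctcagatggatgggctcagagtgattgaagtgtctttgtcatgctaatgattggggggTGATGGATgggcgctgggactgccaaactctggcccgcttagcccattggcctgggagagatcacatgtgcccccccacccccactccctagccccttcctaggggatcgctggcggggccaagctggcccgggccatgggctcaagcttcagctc
Hoxb8, chr11:96281655-96281904: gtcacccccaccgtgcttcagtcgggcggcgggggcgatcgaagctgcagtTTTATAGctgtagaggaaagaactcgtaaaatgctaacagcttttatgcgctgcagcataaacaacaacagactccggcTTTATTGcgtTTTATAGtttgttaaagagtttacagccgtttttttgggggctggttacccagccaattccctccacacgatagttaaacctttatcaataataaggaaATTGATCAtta
Hoxd1, chr2:74762730-74762979: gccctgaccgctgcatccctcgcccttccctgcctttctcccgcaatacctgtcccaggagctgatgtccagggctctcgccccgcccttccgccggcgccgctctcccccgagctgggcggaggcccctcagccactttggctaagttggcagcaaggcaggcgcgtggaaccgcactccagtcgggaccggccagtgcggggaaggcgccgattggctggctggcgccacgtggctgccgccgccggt
Hoxd13, chr2:74667975-74668224: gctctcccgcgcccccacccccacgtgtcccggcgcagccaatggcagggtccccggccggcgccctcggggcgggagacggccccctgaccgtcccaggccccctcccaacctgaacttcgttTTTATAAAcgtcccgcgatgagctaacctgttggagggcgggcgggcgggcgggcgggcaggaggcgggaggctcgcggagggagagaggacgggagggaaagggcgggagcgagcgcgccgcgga
The Hoxb1 window held 1 HOX-PBX match, 162 bases before the RefSeq start. The Hoxb8 window held 3 CDX matches, 199, 120 and 110 bases before the start, and a HOX-PBX match on the minus strand 11 bases before it. The CDX matches at 199 and 110 overlap minus strand TATA box letters. Hoxd13 held overlapping TATA box letters on both strands, 126 and 124 bases before the start, and Hoxd1, whose window also covers an exon of the antisense transcript Haglr, held none of the motifs. RefSeq windows of 250 bases were at hand for 22 of the 39 members, 24 windows in all. A CDX match was in 8.33% of them and in 9.81% of 32851 windows of all genes, a HOX-PBX match in 16.7% and 7.68%, and a TATA box in 16.7% and 12.4%. A MEIS match (TGACAG) was in 8.33% and 15.9%. The member windows had a median GC content of 58.6% and 12.5 CpG sites, against 52.4% and 6 for all windows, and within the 4 shown the GC content ran from 44.4% in Hoxb8 to 74.4% in Hoxd13. These matches are letters in a window, and no binding was measured.

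Between genotypes at day 0, no Hox gene passed the edgeR test, where 0.13% of all tested genes did. At an unadjusted p under 0.05, 6 members differed, all lower in the libraries labelled knockout, beside 11.9% of all genes, and DESeq2 called 1 member, Hoxd9. The log2 difference, labelled knockout minus wild type, was negative for 26 members, positive for 8, not defined for Hoxb6 and not tested for 4, while 48.5% of all tested genes were negative. Its median over tested members was -0.55, beside 0.00 over all genes. Many of these members passed the filter only through their day 7 reads. With the day 0 groups fitted alone, 16 members were tested, 13 negative and 3 positive, with a median of -0.35. In 4 members all 3 libraries labelled knockout lay below all 3 wild type libraries, namely Hoxb5, Hoxb7, Hoxd9 and Hoxd11 (7.22% of all genes). The Hoxd9 difference was -1.19 (SE 0.20, edgeR adjusted p = 0.0560), with an adjusted p from 9.33e-04 by DESeq2 to 0.619 over the alternatives run. Hoxd11 stood at 0.490 ± 0.149 and 0.207 ± 0.0120 RPKM (SD, n = 3), a difference of -1.24 (SE 0.51, edgeR adjusted p = 0.376). Hoxb7 had the same adjusted p of 0.376, with a difference of -1.59, which was -2.92 without knockout day 0 replicate 3. Hoxb5 had 6 reads in wild type and none in the other group. All 8 tested Hoxd members had negative values, and the summed Hoxd level was 7.64 ± 0.395 CPM in wild type and 4.45 ± 0.109 CPM in the libraries labelled knockout (SD, n = 3 each), with no overlap. The Hoxc median was 0.35.

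At day 7 no Hox gene passed between genotypes by edgeR either, where 0.026% of all tested genes did. At an unadjusted p under 0.05, 8 members differed, all lower in the libraries labelled knockout, beside 8.18% of all genes. DESeq2 called 4, Hoxa7, Hoxb6, Hoxc8 and Hoxc9. The log2 difference was negative for 31 of the 39 members, positive for 3, not defined for Hoxc12 and not tested for 4, while 53% of all tested genes were negative. Its median over tested members was -0.57, beside -0.02 over all genes. In 18 members every library labelled knockout lay below every wild type library (12.8% of all genes), and in 1, the untested Hoxa2, above (6.7%). The anterior, central and posterior medians were -0.24, -0.48 and -0.84.

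**Figure D4:**
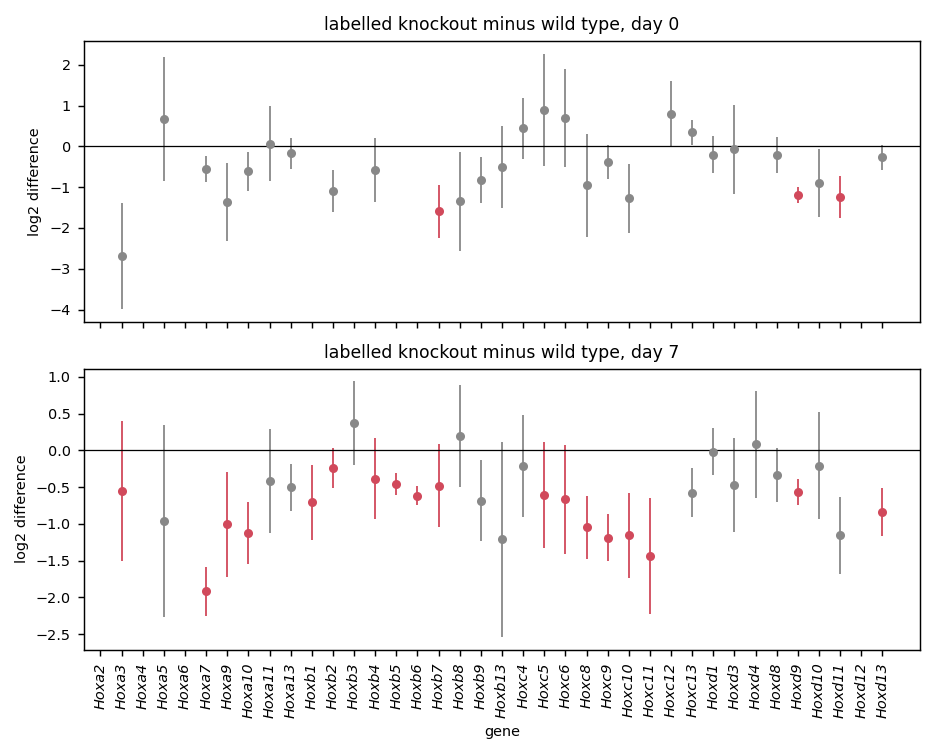
Log2 difference between libraries labelled knockout and wild type for the Hox genes at day 0 (top) and day 7 (bottom), with standard errors. Red marks members in which all 3 libraries labelled knockout lie below all 3 wild type libraries, and members shown without a value had no read in a group or were not tested. No point passed the edgeR test. At day 7 the largest tested difference is that of Hoxa7, -1.92.

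Hoxa7 differed the most at day 7, by -1.92 (SE 0.34, edgeR adjusted p = 0.144). Its adjusted p ran from 2.78e-04 by DESeq2 to 0.387 over the alternatives. Hoxb6 differed by -0.62 (SE 0.13, edgeR adjusted p = 0.345, from 0.00581 to 0.761 over the alternatives), and Hoxc9 by -1.19 (SE 0.32, edgeR adjusted p = 0.422, from 8.35e-04 to 0.776). Hoxc8 differed by -1.05 (SE 0.43, edgeR adjusted p = 0.577, from 6.58e-05 to 1), and Hoxd9 by -0.57 (SE 0.17, edgeR adjusted p = 0.465). Hoxa10, Hoxb5 and Hoxd13 made up the 8, at -1.12, -0.46 and -0.84, with edgeR adjusted p-values of 0.553, 0.480 and 0.564. The Hoxd1 and Hoxd4 differences were -0.02 and 0.08, each smaller than its standard error.

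From the whole-genome counts, the summed levels of all 4 clusters were lower in the libraries labelled knockout at day 7 with no overlap. In wild type day 7 replicate 2 the table divided by parental genome gave Hoxb2 1405 reads in place of 4176. The Hoxb separation thus depends on the count table used. The ratio to wild type was 0.510 for Hoxc, and 0.778, 0.824 and 0.810 for Hoxa, Hoxb and Hoxd. Hoxc libraries lay between 15.8 and 18.6 CPM with the knockout label and between 33.3 and 35.1 CPM in wild type. With 3 libraries against 3, an exact permutation test cannot go below p = 0.1, so these sums were not tested. Marker lists of other cell types also differed in their sums. The 9 lateral and extraembryonic mesoderm markers, all of which rose in both genotypes, summed to 2651 to 2926 CPM in wild type and to 2240 to 2334 CPM in the libraries labelled knockout at day 7. The 8 trophoblast markers, 4 of which rose and 2 of which fell in each genotype, summed to 4476 to 5266 and 3982 to 4128 CPM. Most of that sum was Krt8 and Krt18, and Eomes went the other way, at 106 CPM in wild type and 122 CPM in the libraries labelled knockout. Hand1 made most of the mesoderm sum, at 1945 and 1508 CPM, while Pdgfra was at 92.1 and 100.3 CPM. The 9 feeder fibroblast markers, of which 7 rose and 1 fell, summed to 1373 to 1569 and 1101 to 1134 CPM, from 22.0 to 31.1 CPM at day 0, where Col3a1, Dcn and Fap were at 0. The 8 neural markers were higher with the knockout label, at 250.1 to 262 CPM against 211 to 244 CPM, with no overlap, while the paraxial mesoderm and endoderm sums overlapped. Over 7 days in wild type, 3 of 8 paraxial mesoderm markers rose and 1 fell. There 1 of 8 neural markers rose and 4 fell, and 4 of 7 endoderm markers rose. Of all tested genes, 32.9% rose and 32.1% fell in wild type. The part of any of these lists in the Hox differences was not tested.

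The difference between the 2 day changes was tested as an interaction, which uses the same libraries as the comparisons above. No Hox gene passed (0.026% of all tested genes), 5 had an unadjusted p under 0.05 by edgeR (6.86% of all genes), and DESeq2 called none. Of these, Hoxb1, Hoxb3 and Hoxb5 had no read in 1 day 0 group. Hoxa7 had an interaction of -1.37 (SE 0.46, edgeR adjusted p = 0.576) and Hoxd9 of 0.63 (SE 0.26, edgeR adjusted p = 0.685). The median was -0.09, beside -0.05 over all genes, with 16 positive and 19 negative values.

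Among genes that act with or on the Hox clusters, cofactors rose. Beside the list counts below, 32.9% of all tested genes rose and 32.1% fell in wild type. In the cells labelled knockout 31.1% of all tested genes rose and 32.3% fell. Of 9 PBC and MEIS genes, 7 rose and 1, Pbx4, fell in each genotype. In wild type the log2 changes were 2.34 for Pbx2, 2.79 for Meis3 and 2.78 for Pknox2 (edgeR adjusted p of 5.16e-09, 4.61e-08 and 5.45e-08). Of 12 Cdx genes and other posterior regulators, 8 rose in each genotype and 1, Cdx4, fell in the cells labelled knockout. Brachyury (T) rose by 8.09, Cdx2 by 8.79, Wnt5a by 7.76 and Lin28a by 0.72 in wild type (edgeR adjusted p of 2.49e-10, 2.03e-09, 3.42e-08 and 1.45e-06). Cdx2, which encodes a direct activator of Hox genes, went from a mean of 0.189 to 84.4 CPM in wild type and from 0.0937 to 65.8 CPM in the cells labelled knockout.

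Of 10 retinoic acid genes, 5 rose and 3 fell in wild type and 5 rose and 2 fell in the cells labelled knockout. Cyp26a1, which degrades retinoic acid, rose by 6.76 (edgeR adjusted p = 9.22e-08) and the receptor Rarg fell by 1.59 (edgeR adjusted p = 6.48e-07) on the log2 scale in wild type. Of 16 Polycomb genes, 5 rose and 8 fell in each genotype, with Cbx7 at -3.18 and Eed at -1.31 in wild type. Of 10 trithorax and MLL genes, 2 rose and 3 fell in wild type and 3 rose and 4 fell in the cells labelled knockout. Of 10 non-coding RNAs of the clusters found in the matrix, 5 were tested. Of those, 4 rose and 1 fell in wild type, and 3 rose and 1 fell in the cells labelled knockout. Hoxb3os, antisense to Hoxb3, went from 0 in every day 0 library to 12.6 CPM in wild type and 9.52 CPM in the cells labelled knockout. Halr1, a non-coding RNA beside the Hoxa cluster, went from 8.96 and 5.14 CPM to 0 in every day 7 library. Of 16 tested genes beside the clusters 6 rose and 6 fell in wild type, and 4 rose and 5 fell in the cells labelled knockout. Evx1, next to Hoxa13, rose by 3.84 (edgeR adjusted p = 1.36e-09) in wild type. Of 9 tested ParaHox and Nk homeobox genes, 5 rose and 2 fell in wild type, and 6 rose and 3 fell in the cells labelled knockout. No gene of these lists passed between genotypes on either day.

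Strand was not stated for the counting, and 16 of the 39 members share exon sequence with another gene, 10 of them with an antisense gene. Where they overlap, reads of Hoxa7 cannot be told from those of Hoxaas3, nor those of Hoxa11 from Hoxa11os, Hoxb2 and Hoxb3 from Hoxb3os, or Hoxb5 from Hoxb5os. On the same strand, Hoxc5 shares exon sequence with Hoxc10, and Hoxd3 with Hoxd4.

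Reads of the day 7 transcripts were compared by the parental genome to which they were assigned. The labels do not say which strain is genome 1. Pooled over the 6 day 7 libraries, genome 2 held 43.5% of the assigned Hoxb reads (5598 reads, with 7264 of genome 1). It held 8.57% of the Hoxa reads (85 of 992), 2.95% of the Hoxd reads (82, with 2697 of genome 1) and none of 641 Hoxc reads. Reads of both genomes were found for 9 of the 9 Hoxb members with assigned reads, 2 Hoxa members, 2 Hoxd members and no Hoxc member.

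The regions around the clusters had like balances, here counted over all 12 libraries of both days. Neighbouring genes were those within 1 Mb of a cluster or inside it that had at least 100 assigned reads. Of these, 41 of 44 beside Hoxb had a genome 2 share between 20% and 80%, with a median of 45.7%. Under 5% were 9 of 10 genes beside Hoxa, 29 of 36 beside Hoxc and 8 of 11 beside Hoxd. Over all 14563 autosomal genes with that many reads, 46.6% were under 5%. A low genome 2 share was thus not particular to the Hoxa, Hoxc and Hoxd genes. It is not read here as expression of these genes from genome 1 alone. Whether reads of genome 2 could be assigned in these regions was not tested.

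Within Hoxb, the Hoxb6 genome 2 shares were 43.0%, 43.9% and 48.0% in wild type and 36.9%, 44.9% and 32.7% in the libraries labelled knockout. Hoxb4 shares in wild type were 42.3%, 41.0% and 37.8%. Hoxb2 shares were 48.0%, 48.3% and 41.8% in wild type and 27.4%, 50.2% and 49.1% in the libraries labelled knockout, so that 1 library stood lower. Hoxb8 varied most, with 99.1%, 1.65% and 52.0% in wild type and 46.5%, 42.1% and 33.3% in the libraries labelled knockout. In Hoxd, Hoxd1 had none of 714 assigned reads from genome 2 in wild type and none of 459 in the libraries labelled knockout, and Hoxd9 none of 852 and 414. Hoxd4, between them, had all 64 assigned reads from genome 2 in wild type, in each of the 3 libraries. In the libraries labelled knockout it had 15 of 16, and all 15 were in replicate 3. Replicates 1 and 2 of that group had no Hoxd read of genome 2. Hoxd4 shares exon sequence with Hoxd3, Gm28230 and Hoxd3os1, and whether its reads were assigned to the right genome was not tested. In Hoxa, Hoxa9 shares were 9.84%, 38.6% and 21.9% in wild type, over 181 assigned reads, and 41.2%, 0% and 0% in the libraries labelled knockout, over 51.

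**Figure D5:**
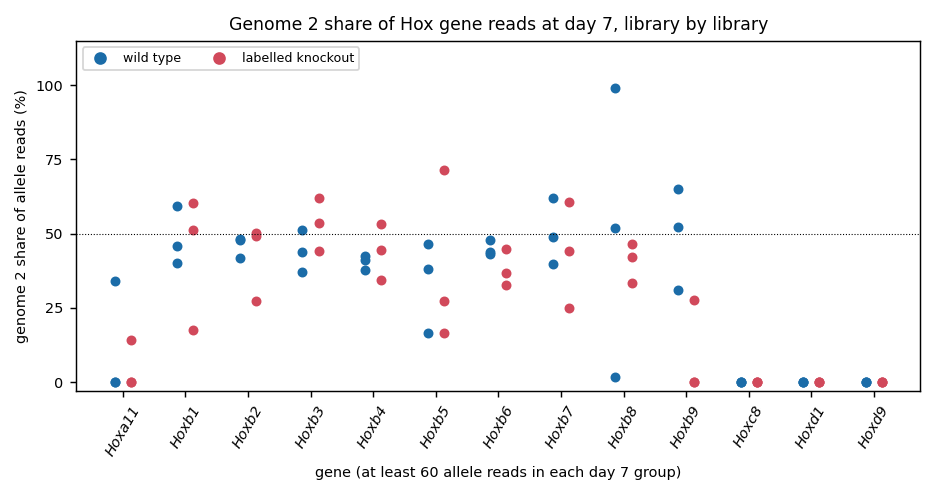
Share of assigned reads from genome 2 (%) in each day 7 library for 13 Hox genes with at least 60 assigned reads in each day 7 group. Points are libraries, blue for wild type and red for labelled knockout. Hoxb members mostly lie around 45%, Hoxb8 in wild type runs from 1.65% to 99.1%, and Hoxc8, Hoxd1 and Hoxd9 lie at 0%.

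Of the 11 members with at least 20 assigned reads in every day 7 library, 4 passed an edgeR test of genome 2 against genome 1, all with genome 1 higher, where 58.9% of 11032 genes passed that way and 21.8% the other. Among them were Hoxd1, Hoxd9 and Hoxb6. Hoxb6 had a log2 ratio of -0.50 (SE 0.16, edgeR adjusted p = 0.0250), and that call was lost without wild type day 7 replicate 1 or 2 or knockout day 7 replicate 1 or 3 (adjusted p from 0.0662 to 0.0767). The allelic balance did not pass between genotypes for any member or any gene (0% of 11032), with 0 members at an unadjusted p under 0.05 by edgeR, the one tool used for it.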

How the data were processed

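Poly(A) RNA-seq of 12 libraries in 4 groups of 3 was analysed from the deposited tables. Per the labels, the unit is the expected count: the authors deposited estimated counts per gene and per transcript as whole numbers, for all reads and for reads assigned to genome 1, genome 2 or neither (29.7% to 32.0% of reads were assigned). The submitters' processing notes name StringTie 1.3.3, HISAT2 2.1.0, DESeq2 1.32.0, Trimmomatic 0.36, FastQC 0.11.3 and SAMtools 0.1.19, and the builds mm10 and GRCm38. For settings, annotation release and strand, nothing is given in the sources used here. StringTie divides reads among overlapping genes and isoforms, so counts of such genes are estimates. Groups came from the titles, genotypes and time points of the labels.

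Genes were kept by filterByExpr, scaled by TMM and tested with edgeR 4.0.16 in R 4.3.3 (glmQLFit and glmQLFTest, 1 coefficient per group, all 12 libraries), with Benjamini-Hochberg adjustment over 19235 genes and a threshold of 0.05. RPKM is TMM-scaled CPM per kilobase of GENCODE M21 exon length. Folds against a group without reads use a floor of 3 reads over the group. The allele test used genome 1 and genome 2 counts as columns with a library block, for genes with at least 20 assigned reads in every day 7 library. Scripts were tested on simulated data. Alternatives were DESeq2 1.42.0, DESeq2's size factors, no filter, a replicate block, the treatment label as a covariate, the compared groups alone, other coverage minimums (10 and 50), each library left out and, added after the data were seen, the sum of the divided counts. Per-library values were given for the highest member of each cluster at day 0 and day 7, and for the largest riser of each cluster in wild type. Outside this rule, per-library levels were also given for Hoxb1, Hoxb2, Hoxb5, Hoxb8, Hoxc9 and Hoxc12. Other lists were named by smallest adjusted p. Some genes that these rules pick are not reported here. Members and lists were chosen with earlier results of these data known. Between replicates, a chi-square that takes the estimated counts as reads ran from 22.4 to 54.9 per degree of freedom. It cannot separate spread between libraries from error of the estimates.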

Additional observations from a re-analysis of the deposited data

How the results depend on the processing

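No call was reversed under the alternatives run. The interaction median, -0.09 with all libraries and with no test, was 0.039 without wild type day 7 replicate 2. DESeq2 called 1 member between genotypes at day 0 and 4 at day 7, where it called 431 and 159 genes of the whole table and edgeR 25 and 5. The cause was not tested. A coverage minimum of 10 raised the members called between genomes from 4 to 10, of 18 tested instead of 11. The median change in the cells labelled knockout was 3.85 when the compared groups were fitted alone, and the wild type median was 4.09 with the sum of the divided counts. Leaving out 1 library at a time gave 27 to 29 calls over 7 days in wild type (27 in full) and 27 to 29 in the cells labelled knockout (31 in full), 0 to 0 in both genotype comparisons, the interaction and the allelic balance, and 3 to 5 between genomes. The medians then ranged from 3.53 to 4.02, from 3.32 to 3.70, from -0.62 to -0.32 at day 0, from -0.58 to -0.50 at day 7 and from -0.34 to 0.039 for the interaction. Same-numbered replicates did not deviate together (r from -0.02 to 0.06). With the replicate number as a block, 27 members were called in wild type, 29 in the cells labelled knockout (without Hoxb13 and Hoxd10), 0 between genotypes and 3 between genomes (without Hoxb6). Of the 31 members called in the cells labelled knockout, 27 kept their call under every alternative in which they were tested. Of the 27 in wild type 26 did. The exceptions were Hoxa3, Hoxa7, Hoxb13 and Hoxd10, and Hoxb7 in wild type. With the compared groups fitted alone, Hoxc12 was also no longer among the members called in either genotype. Depth limits day 0, where many members had under 10 reads over 3 libraries and a fitted change rests on the library that holds them.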

Other observations

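Hoxa7 reads were assigned to different isoforms in different libraries. The protein-coding isoform Hoxa7-201 stood at 3.42, 2.58 and 0.232 CPM in wild type at day 7 and at 0, 0 and 0.677 CPM in the libraries labelled knockout. Hoxa7-205, annotated as a target of nonsense-mediated decay, stood at 0.0231, 0.0742 and 1.78 CPM and at 0.648, 0.912 and 0 CPM. At day 0 Hoxa7-201 stood at 2.28, 2.61 and 0 CPM in wild type and at 0, 0 and 1.98 CPM in the libraries labelled knockout, and Hoxa7-205 at 0, 0 and 1.53 CPM and at 1.02, 1.36 and 0 CPM. In each of the 4 groups the isoform that led in replicates 1 and 2 did not lead in replicate 3, and the leading isoform of a replicate number differed between the genotypes. The cause was not tested.

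The whole-genome table and the sum of the divided table differed by more than 1.5-fold in 9 of 170 values of Hox genes with at least 50 reads (5.29%), beside 10.3% of 162420 values over all genes. The 9 values were 1 of Hoxb2, 4 of Hoxb3, 1 of Hoxb8, 2 of Hoxb9 and 1 of Hoxd4. For Hoxb3 the divided table held between 0.494 and 0.602 times the whole-genome reads in the 3 day 7 libraries labelled knockout and in wild type day 7 replicate 3.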
